A study of Mus musculus with 96 samples.

Results

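Bhlhe40, Bhlhe41 and Ciart are accessory repressors of the circadian clock, and they are 3 of the 55536 genes in the expression tables. They were named for that role with earlier results of these data known, and the rule that picks them uses no measured value. The first 2 encode the basic helix-loop-helix proteins DEC1 and DEC2, and Ciart encodes CHRONO. In the clock, CLOCK and BMAL1 bind E-box motifs and switch on the Per, Cry, Nr1d1, Dec and Ciart genes. The DEC proteins bind E-boxes themselves and hold those promoters down, while CHRONO binds BMAL1 and recruits histone deacetylase activity to it. Bhlhe40 is also a known target of the hypoxia-inducible factors (HIF), and its RNA is known to rise in low oxygen. Bhlhe40 and Ciart had a mean of 1 TPM (a share of all transcripts, corrected for transcript length) or more in a genotype and entered the tests across all genes, and Bhlhe41 did not.

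RNA was sequenced from intestinal organoids, epithelial cultures that organise themselves in a gel, of C57BL/6 mice. The genotypes are APC+/+;BMAL1+/+ (called control here), APC+/+;BMAL1-/- (Bmal1-null), APCmin/-;BMAL1+/+ (Apc-min) and APCmin/-;BMAL1-/- (Apc-min Bmal1-null). All cultures had 1 h of 0.1 µM dexamethasone, a glucocorticoid that sets cell clocks to a common phase, and RNA was taken at 12 time points from 24 to 46 h later. There was no group without dexamethasone, and the tables hold 22 libraries per genotype. The labels state 2 organoid lines per genotype without saying which library came from which line, so the p-values here measure the spread between libraries. Medium went with Apc: EN was used for both Apc-min genotypes and ENR, which adds the Wnt agonist R-spondin, for the other ones. Library numbers also went with Apc, from 2 to 48 in the Apc-min genotypes and from 49 to 96 in the others, so Apc genotype, medium and library series cannot be told apart.

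Uniquely mapped reads ranged from 28769449 to 48081308 per library. The deposited share of reads unmapped as too short averaged 6.73% in control and 6.0% in Bmal1-null libraries. It averaged 1.3% with the Apc mutation alone and 1.31% with both mutations. This is the name of the mapping measure, which does not give the length of the reads. All 8 epithelial markers examined were at 1 TPM or more in every genotype, and all 3 smooth muscle markers averaged under 0.1 TPM. No fibroblast marker of 6 reached 1 TPM, while Cdh5, 1 of 3 endothelial markers, averaged 7.18 TPM in Apc-min and Itgam, 1 of 6 immune markers, 1.29 TPM in control libraries. Arntl, the gene symbol of Bmal1, had a median of 14.5 TPM in control (11.3 to 20.7), 8.72 in Bmal1-null (6.31 to 10.9), 11.3 in Apc-min (4.09 to 17.3) and 4.47 in Apc-min Bmal1-null libraries (2.0 to 14.7). With Apc intact the ranges did not overlap. The labels do not give the deleted part of the gene, and a TPM over the whole gene does not show it. The lowest Apc-min value belonged to the library labelled 28 h replicate 1 of that genotype, and the highest Apc-min Bmal1-null value to the library labelled 28 h replicate 1 there. This pair goes against its Bmal1 labels, was kept under them, and is called the doubted pair, with values given with and without it. Each time point of a genotype was planned with a lower-numbered and a higher-numbered library, and these library sets differed within Apc-min organoids, as described further on.

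Ciart (ENSMUSG00000038550) lies on chromosome 3 from 95878503 to 95882251 on the minus strand in GRCm38. Bhlhe40 (ENSMUSG00000030103) lies on chromosome 6 from 108660629 to 108666925 on the plus strand, and Bhlhe41 (ENSMUSG00000030256) on chromosome 6 from 145858243 to 145865558 on the minus strand. The RefSeq promoter table (GRCm38.p6) holds windows of 250 bases before and 50 bases after the start of Ciart and Bhlhe41. The part of each window that lies upstream of both the RefSeq start and the GENCODE M21 gene is shown, 5′ to 3′ on the gene's strand, because it carries the motif through which CLOCK and BMAL1 act. Capitals mark each CACGTG E-box.
Ciart, chr3:95882252-95882478, minus strand: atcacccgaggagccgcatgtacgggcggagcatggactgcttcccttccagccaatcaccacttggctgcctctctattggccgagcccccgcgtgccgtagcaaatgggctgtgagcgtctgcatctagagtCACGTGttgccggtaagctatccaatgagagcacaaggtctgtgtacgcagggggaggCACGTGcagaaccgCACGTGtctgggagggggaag
Bhlhe41, chr6:145865559-145865670, minus strand: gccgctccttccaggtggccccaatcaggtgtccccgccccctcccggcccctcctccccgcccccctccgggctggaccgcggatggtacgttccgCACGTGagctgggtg
The Ciart window held 3 matches of CACGTG, at -116, -58 and -44 from the RefSeq start, and the Bhlhe41 window held 1, at -153. CACGTG reads the same on both strands. Of 32851 promoter windows of the same length, 7.15% held at least 1 match and 0.0883%, or 29 windows, held 3 or more. Neither window held CACGTT, an E-box variant found on either strand in 4.68% of windows, or AGGTCA, the core of REV-ERB sites, found in 16.3%. CACGTG and CACGTT differ in their last letter only. A match is a string of letters and was not tested for binding.

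The members differed in level by orders of magnitude. TPM is a scale per transcript length, so levels can be set side by side between genes. Bhlhe40 was abundant in every genotype, with a mean of 134 TPM ± 18.4 in control (SD, n = 22), higher than 89.6% of the 12570 genes that averaged 1 TPM or more. Ciart was at 11.5 TPM ± 2.11 in control (SD, n = 22), higher than 35.9% of those genes. Bhlhe41 was near 0, with 0.0355 TPM ± 0.0407 in control (SD, n = 22) and 4 of 22 control libraries at 0. The median ratio of Bhlhe40 to Ciart within a library was 12 in control, 13.2 in Bmal1-null and 9.93 in Apc-min organoids, and it was lowest, at 7.57, with both mutations. In all 88 libraries Bhlhe40 was the higher of the pair, with ratios from 5.11 to 16.6.

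Across genotypes Bhlhe40 ran from 88.1 to 173 TPM in control (median 133) and from 90.3 to 169 in Bmal1-null organoids (median 128). It ran from 49.1 to 214 TPM in Apc-min (median 115.0) and from 23.4 to 184 in Apc-min Bmal1-null organoids (median 63.8). The genotypes with WT Apc overlapped almost wholly. The Apc-min Bmal1-null genotype held the low values, and its highest value, 184 TPM, is the doubted library, with 113 TPM the next. Ciart ran from 8.76 to 16.3 TPM in control (median 10.8), from 6.91 to 11.9 in Bmal1-null (median 9.69), from 5.03 to 19.9 in Apc-min (median 13.8) and from 3.11 to 18.9 in Apc-min Bmal1-null organoids (median 8.51). All 4 ranges of Ciart overlapped. Libraries of the Apc-min genotypes were more spread, with a coefficient of variation of 48.3% and 44.8% for Bhlhe40 and 38.8% and 49.8% for Ciart, against 13.8% to 18.3% for both genes in the other genotypes.

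**Figure D1:**
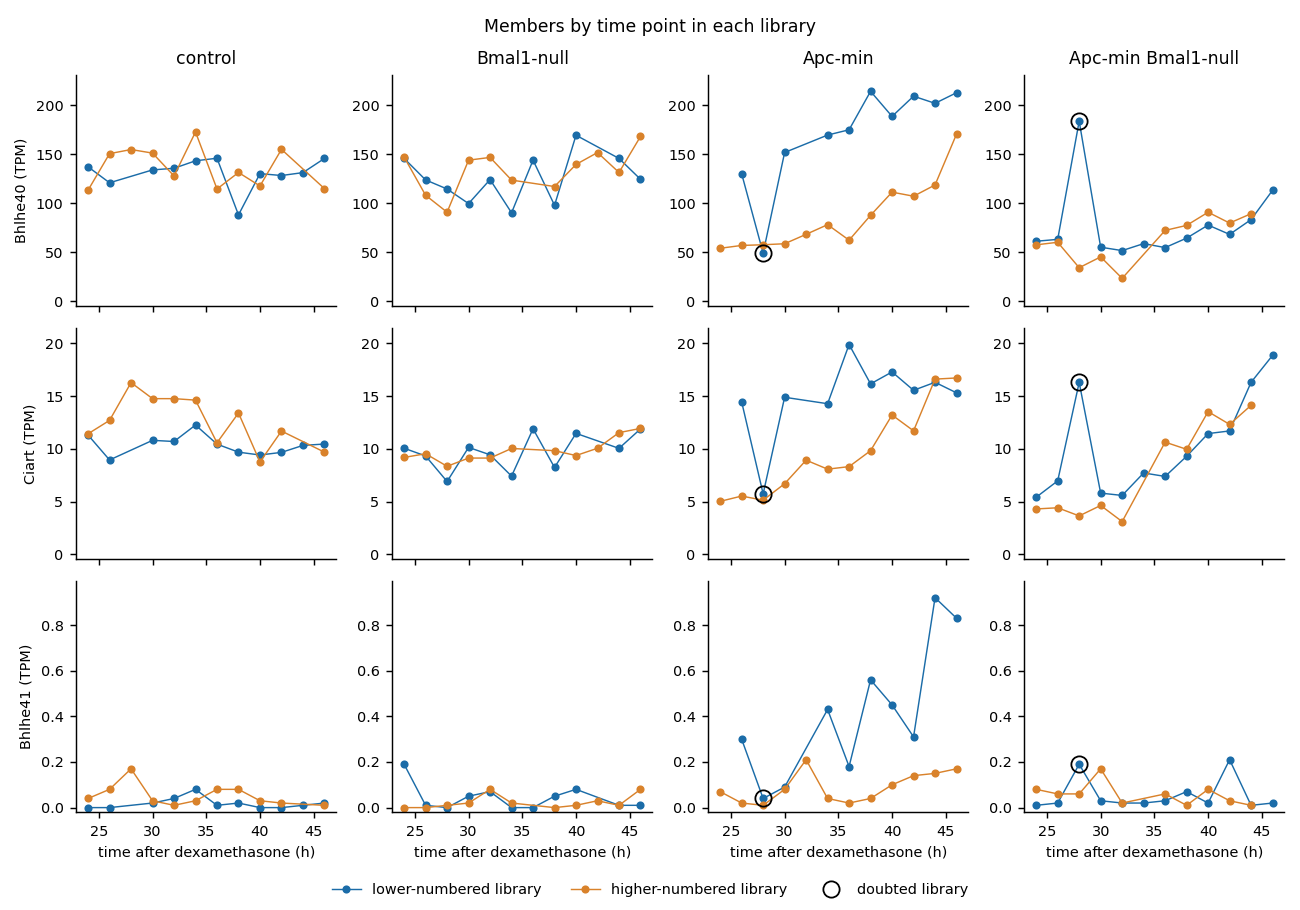
TPM of Bhlhe40, Ciart and Bhlhe41 (rows, each with its own scale) against hours after dexamethasone in the 4 genotypes (columns), 1 point per library, with lines joining libraries of the lower-numbered and the higher-numbered set and circles on the doubted pair. In Apc-min organoids the lower-numbered libraries other than the doubted one hold 130 to 214 TPM of Bhlhe40, and the higher-numbered ones climb from 54.1 to 171 TPM.

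With Apc intact, neither tested member passed for loss of Bmal1. Bhlhe40 averaged 134 TPM ± 18.4 in control and 129.5 TPM ± 23 without Bmal1 (SD, n = 22 each). The log2 difference of (TPM + 1) was -0.05 ± 0.07 (SE, 95% interval -0.19 to 0.10), with an adjusted p of 1 in limma, and Bmal1-null was lower at 5 of 12 time points. Ciart averaged 9.77 TPM ± 1.38 against 11.5 TPM ± 2.11 (SD, n = 22 each). Its log2 difference was -0.21 ± 0.07 (SE, 95% interval -0.35 to -0.07), lower at 8 of 12 time points, and did not pass (limma, unadjusted p = 0.00673, adjusted p = 0.134). Here 3.56% of all 12654 genes tested passed, so 0 of 2 members stands beside a low background. For Ciart the lower-numbered libraries alone gave -0.06 ± 0.08 and the higher-numbered ones -0.36 ± 0.10 (SE, adjusted p = 0.155 in the latter).

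Other clock genes did change in the same comparison. Of the 14 clock genes tested from a list of 18, 6 rose and 4 fell, with a median log2 difference of 0.14 against 0.00 over all genes. The repressor genes Nr1d1 (-2.38) and Nr1d2 (-1.93), direct E-box targets, fell (limma, adjusted p = 7.77e-20 and 3.42e-15). The repressors Cry2 (1.25), Cry1 (1.25) and Per2 (0.74) rose (log2 differences, limma, adjusted p = 9.98e-16 to 1e-05). Bhlhe40 and Ciart, also known as E-box targets, were at -0.05 and -0.21 in the same fit. They were not alone, since the clock genes Per1 (-0.07), Dbp (0.06), Tef (0.22) and Clock (-0.02) did not pass either. The HIF target list, 14 genes tested of 15, had 0 higher and 1 lower, Adm (-0.27). The glucocorticoid list of 10 had 2 higher and 1 lower, with Sgk1 at 0.42.

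From 30 to 34 h to 42 to 46 h the mean of Ciart fell in control and rose in Bmal1-null organoids. In control organoids the 6 libraries of 30 to 34 h held 10.7 to 14.8 TPM (mean 12.98 ± 1.97, SD), and the 5 libraries of 42 to 46 h held 9.67 to 11.7 (mean 10.4 ± 0.822). In Bmal1-null organoids the 6 libraries of 30 to 34 h held 7.42 to 10.1 TPM (mean 9.22 ± 0.982) and the 5 of 42 to 46 h held 10.1 to 11.9 (mean 11.1 ± 0.963). At 30 to 34 h the 2 genotypes did not overlap, and at 42 to 46 h they did. They also overlapped at 24 to 28 h, with 8.95 to 16.3 TPM in control and 6.91 to 10.1 in Bmal1-null organoids. The same held at 36 to 40 h, with 8.76 to 13.4 and 8.24 to 11.9 TPM. A cosine of 24 h period placed the peak of Ciart at 30.5 h in control (log2 amplitude 0.19 ± 0.06, SE) and at 42.9 h in Bmal1-null organoids (0.14 ± 0.05). Neither rhythm passed in limma (adjusted p = 0.356 and 0.739, unadjusted p = 0.0162 and 0.0531). The difference between the rhythms had an amplitude of 0.33 ± 0.08 (SE), which ranked 12th of 12654 genes by p and did not pass (limma, unadjusted p = 0.000816, adjusted p = 0.826). For that test 0.0395% of genes passed.

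Bhlhe40 had no rhythm that passed in either genotype. Its amplitude was 0.10 ± 0.06 in control with a fitted peak at 29.4 h, and 0.18 ± 0.07 in Bmal1-null organoids with a peak at 43.3 h (log2, SE; limma, adjusted p = 0.6 and 0.74). The difference between these rhythms was 0.27 ± 0.09 (adjusted p = 0.826, unadjusted p = 0.0262). Over all genes 0.0557% passed the rhythm test in control and 0% in Bmal1-null organoids. In control 4 of 14 clock genes passed, among them Tef with an amplitude of 0.57, Nr1d1 with 0.55 and Dbp with 0.38 (limma, adjusted p = 0.0107 to 0.0154). In Bmal1-null organoids 0 of the 14 passed in limma, with 1 at an unadjusted p under 0.05, against 864 of all 12550 genes. A single cycle was sampled, so a cosine cannot be told apart from a change that happens once in the series.

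Early and late levels were compared in the Apc-min genotypes as a description. In Apc-min organoids Bhlhe40 averaged 69.6 TPM ± 34.0 at 24 to 28 h (SD, n = 5, 49.1 to 130) and 170.1 TPM ± 46.9 at 42 to 46 h (SD, n = 6, 107 to 213). Ciart averaged 7.18 TPM ± 4.08 (5.03 to 14.5) and 15.4 TPM ± 1.88 (11.7 to 16.7) in the same libraries. The early and late ranges of both genes overlapped, through 1 lower-numbered library at 26 h. In the lower-numbered libraries Ciart was already at 14.5 TPM at 26 h and averaged 14.6, 17.8 and 15.7 TPM over 30 to 34, 36 to 40 and 42 to 46 h. In Apc-min Bmal1-null organoids Ciart averaged 6.85 TPM ± 4.77 (SD, n = 6, 3.65 to 16.3) at 24 to 28 h and 14.7 TPM ± 2.95 (SD, n = 5, 11.7 to 18.9) at 42 to 46 h. The 16.3 TPM is the doubted library, and the next highest early value was 6.97. Bhlhe40 went from 76.7 TPM ± 53.5 (34.2 to 184) to 86.8 TPM ± 16.7 (68.2 to 113) in those libraries, and its lowest value, 23.4 TPM, came at 32 h. Without the doubted library its early mean was 55.3 TPM ± 11.9 (SD, n = 5, 34.2 to 63.1), below the late range. Bhlhe41 averaged 0.07 TPM early and 0.056 TPM late in those organoids.

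Ciart in Apc-min Bmal1-null organoids was the only member called rhythmic with all libraries, with an amplitude of 0.63 ± 0.14 (log2, SE), a 2.40-fold swing and a fitted peak at 41.9 h (limma, adjusted p = 0.0391). That share stands beside 2.59% of all genes. The call was lost without any 1 of 15 of the 22 libraries (adjusted p = 0.000927 to 0.0837 over the 22 fits), and with a linear time term added the amplitude was 0.24 ± 0.15 (adjusted p = 0.729). Without the doubted pair both members passed, Ciart at 0.76 ± 0.11 (adjusted p = 0.000927) and Bhlhe40 at 0.52 ± 0.09 with a peak at 42.7 h (adjusted p = 0.00396), where 11.9% of all genes passed. With all libraries Bhlhe40 was at 0.41 ± 0.15 (adjusted p = 0.301).

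In Apc-min organoids neither member passed, where 12% of all genes did. Bhlhe40 had an amplitude of 0.60 ± 0.18 and a peak at 41.3 h (limma, adjusted p = 0.0704, unadjusted p = 0.0116), and Ciart 0.49 ± 0.14 and a peak at 40.7 h (adjusted p = 0.0558, unadjusted p = 0.00741; log2, SE). With the library set as a block both passed, with amplitudes of 0.55 ± 0.12 and 0.46 ± 0.11 (adjusted p = 0.00583 and 0.0106), where 33.1% of all genes passed. With a linear time term the amplitudes were 0.08 ± 0.28 and 0.11 ± 0.14 (adjusted p = 1 for both). A steady climb over the series is placed near such peak times by a cosine. The HIF target list had 4 of 14 genes called rhythmic in Apc-min organoids, with amplitudes of 1.20 for Ndrg1, 0.89 for Pdk1, 0.58 for Car9 and 0.38 for Slc2a1 and peaks from 40.6 to 41.5 h. Of 15 clock genes only Arntl passed (0.42, peak at 40.3 h). The fit of Arntl holds the doubted library, its lowest at 4.09 TPM, and no value without that library is given.

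**Figure D2:**
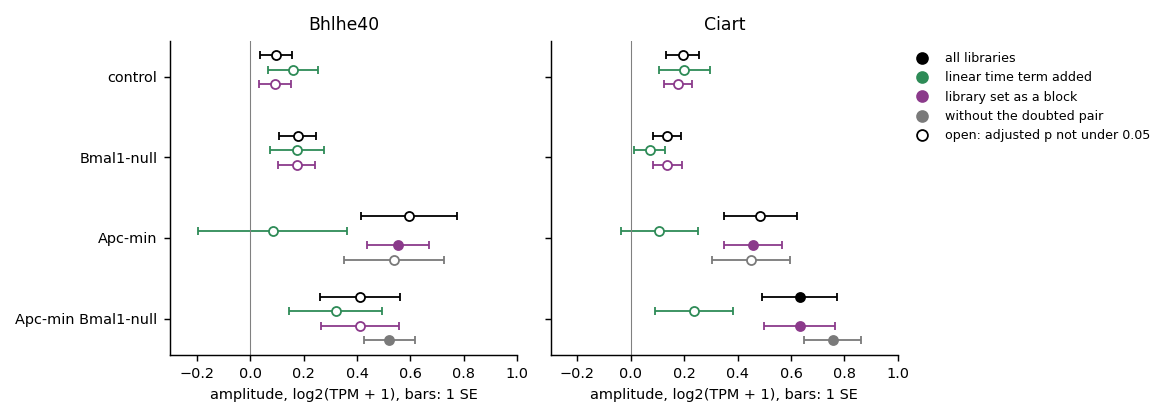
Fitted amplitude of the 24 h cosine on log2(TPM + 1) for Bhlhe40 and Ciart in the 4 genotypes, with 1 SE, under 4 settings, filled where the adjusted p in limma was under 0.05. Amplitudes of the Apc-min genotypes lie between 0.41 and 0.63 with all libraries and drop to 0.08 to 0.32 with a linear time term.

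Among Apc-min organoids the library sets differed. The labels do not tie libraries to the 2 organoid lines, so whether a set is 1 line cannot be told from them. If it were, these p-values would compare 2 cultures. Bhlhe40 averaged 170.2 TPM ± 50.8 in the 10 lower-numbered and 85.96 TPM ± 35.2 in the 12 higher-numbered libraries (SD). Their ranges, 49.1 to 214 and 54.1 to 171 TPM, overlap, and without the doubted library the former starts at 130 TPM. The log2 difference of (TPM + 1), higher-numbered over lower-numbered with the time point as a factor, was -0.90 ± 0.14 (SE, limma, adjusted p = 0.000256), and it was -1.02 ± 0.10 without the doubted library. Ciart averaged 14.99 TPM ± 3.64 and 9.65 TPM ± 4.13, a log2 difference of -0.56 ± 0.14 (adjusted p = 0.00432). Over all genes 59.5% passed, so a call here is common among all genes.

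In the other genotypes no set difference of the members passed. It was 0.04 ± 0.09 for Bhlhe40 and 0.21 ± 0.07 for Ciart in control organoids (adjusted p = 0.734 and 0.0574), where 24.4% of genes passed. It was 0.10 ± 0.09 and 0.05 ± 0.07 in Bmal1-null organoids (adjusted p = 1 for both), where 0.502% passed, and -0.27 ± 0.23 and -0.30 ± 0.19 in Apc-min Bmal1-null organoids (adjusted p = 0.469 and 0.349), where 2.06% passed. Without the doubted library the latter were -0.04 ± 0.13 and -0.12 ± 0.11 (adjusted p = 0.871 and 0.514), where 5.73% passed. Whether the set difference itself differs between genotypes was not tested. For Ciart the 3 higher-numbered Apc-min libraries of 24 to 28 h held 5.03 to 5.53 TPM, against 14.5 and, in the doubted library, 5.74 TPM in the 2 lower-numbered ones. At 42 to 46 h they held 11.7 to 16.7 against 15.3 to 16.3 in the 3 lower-numbered ones. For Bhlhe40 a gap remained at 42 to 46 h, with 107 to 171 TPM against 202 to 213.

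Other measures moved with the Apc-min sets. All 14 HIF targets tested were lower in the higher-numbered libraries, with a median log2 difference of -0.77 against 0.07 over all genes. Of the 15 clock genes tested 3 were higher and 8 lower, and of 9 glucocorticoid genes 1 was higher and 7 lower. The summed level of 8 enterocyte markers was 68.2 to 200 TPM in the lower-numbered and 19 to 27.4 in the higher-numbered libraries, and Krt20 alone averaged 158 and 18.4 TPM. Only 2 of the 8 in the lower-numbered and 3 in the higher-numbered libraries averaged 1 TPM or more, Sis averaged under 0.1 TPM, and of 3 tested 1 was higher and 2 lower. The 5 goblet cell markers summed to 149 to 322 and 59.2 to 118 TPM, with 1 higher and 2 lower of 3 tested. Cdh5, the endothelial marker, averaged 13 and 2.36 TPM and was lower in limma. The summed level of 6 stem cell markers was 244 to 415 and 345 to 550 TPM. The share of reads unmapped as too short was 1.27% and 1.33%. Whether these measures bear on the members was not tested. In bulk samples, fewer cells of a type and less RNA per cell cannot be told apart.

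**Figure D3:**
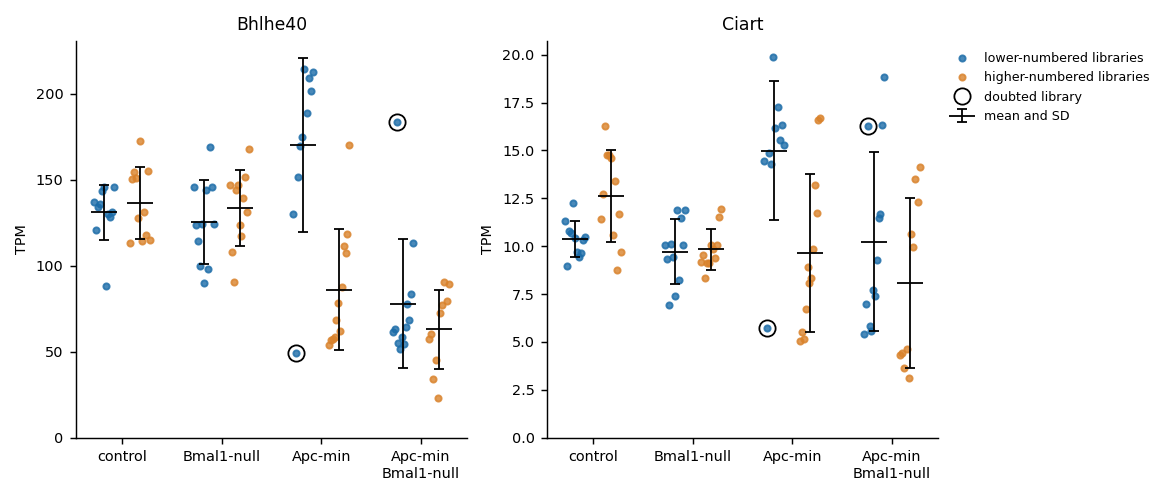
TPM of Bhlhe40 and Ciart in each library by genotype and library set, in order of time within a set, with the mean and SD as bars and the doubted pair circled. Means of Bhlhe40 are 170.2 and 85.96 TPM in the Apc-min sets and 77.95 and 63.03 TPM in the Apc-min Bmal1-null sets.

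On the Apc-min background, Bhlhe40 was lower without Bmal1. It averaged 71.2 TPM ± 31.9 in Apc-min Bmal1-null against 124 TPM ± 60.02 in Apc-min organoids (SD, n = 22 each) and was lower at 10 of 12 time points, the exceptions being 24 and 28 h. At 28 h both libraries of the doubted pair enter. The log2 difference of Bhlhe40 was -0.64 ± 0.18 (SE, 95% interval -0.98 to -0.29; limma, adjusted p = 0.00265), or 0.643 of the Apc-min level. All 44 fits that left out 1 library kept the call (-0.75 to -0.58). Since 60.3% of all 12885 genes passed, 1 of 2 members called is no more than the background. The size differed between the sets, -1.05 ± 0.30 in the lower-numbered libraries (adjusted p = 0.0103, where 64.7% of genes passed) and -0.35 ± 0.13 in the higher-numbered ones (adjusted p = 0.0437, where 49.5% passed). Without the doubted pair it was -0.76 ± 0.15 over all libraries (adjusted p = 3.31e-05, where 65.9% passed) and -1.38 ± 0.08 in the lower-numbered ones. There the 9 Apc-min libraries held 130 to 214 TPM and the 11 Apc-min Bmal1-null libraries 51.7 to 113, with no overlap. Within Apc-min organoids the sets themselves differed by -0.90 ± 0.14 (log2, SE), higher-numbered over lower-numbered. The higher-numbered Apc-min libraries averaged 85.96 TPM, and the lower- and higher-numbered Apc-min Bmal1-null ones 77.95 and 63.03 TPM. The part of the organoid lines in the genotype difference was not tested.

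Ciart was lower by less. It averaged 9.25 TPM ± 4.61 against 12.1 TPM ± 4.69 (SD, n = 22 each), was lower at 10 of 12 time points, and had a log2 difference of -0.29 ± 0.14 (SE, 95% interval -0.56 to -0.03; limma, adjusted p = 0.0626, unadjusted p = 0.039). Without the doubted pair it was -0.38 ± 0.12 and passed (adjusted p = 0.00508). It also passed with the library set as a block, at -0.35 ± 0.12 (adjusted p = 0.013, where 64% of genes passed). At 46 h Ciart was higher without Bmal1, with 18.9 TPM in the single library against 15.3 and 16.7 TPM in Apc-min organoids.

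HIF targets were lower as well. Of 14 genes tested 12 fell and 0 rose, with a median log2 difference of -0.73 against -0.04 over all genes. The mitophagy receptor Bnip3 (-2.25), the oxygen sensor Egln3 (-2.05), Ndrg1 (-1.78) and the peptide hormone gene Adm (-1.68) fell most (limma, adjusted p = 0.000593 or less, the smallest 2.06e-05). In the lower-numbered libraries 12 fell, with a median of -1.09 against 0.02 over all genes, where 64.7% of genes passed. In the higher-numbered ones 6 fell, with a median of -0.25 against -0.12 over all genes, where 49.5% passed. Of 15 clock genes tested, 6 rose and 5 fell, among them Npas2 (1.60), Cry1 (1.38) and Per2 (1.18) upwards and Nr1d2 (-1.60) and Arntl (-1.01) downwards. Of 9 glucocorticoid genes tested 2 rose and 4 fell, with Dusp1 at -0.54 and Sgk1 at -0.53. The part of these groups in the level of Bhlhe40 was not tested.

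**Figure D4:**
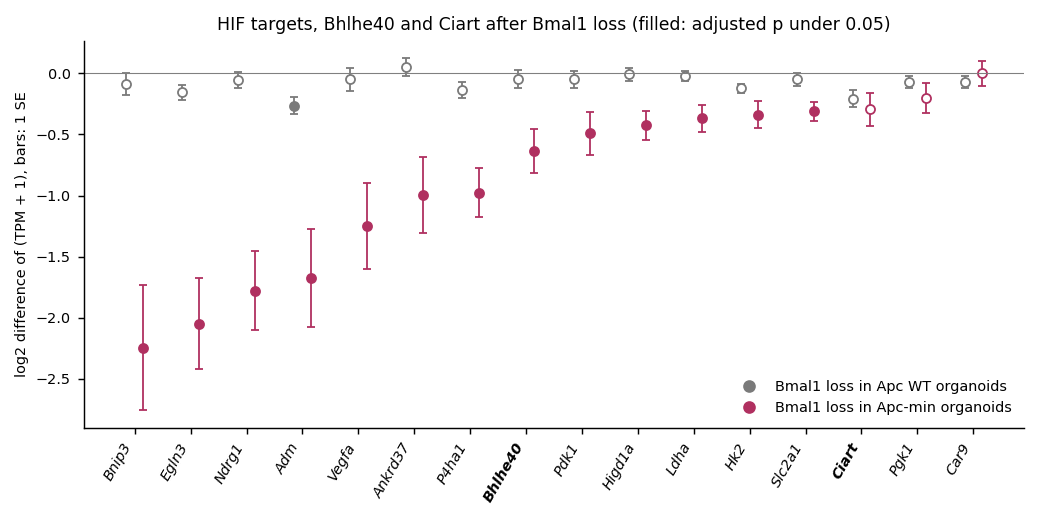
Log2 difference of (TPM + 1) after Bmal1 loss, with 1 SE, for the tested HIF targets with Bhlhe40 and Ciart, in organoids with WT Apc (grey) and in Apc-min organoids (red), filled where the adjusted p in limma was under 0.05. On the Apc-min background Bhlhe40 lies at -0.64 within a list whose median is -0.73, and with WT Apc it lies at -0.05.

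The direct test of the difference between both backgrounds, the Apc by Bmal1 interaction, passed for Bhlhe40. It was -0.65 ± 0.20 (log2, SE; limma over 88 libraries, adjusted p = 0.00632) and kept its call in all 88 fits that left out 1 library (-0.76 to -0.59). For Ciart it was -0.15 ± 0.18 (adjusted p = 0.518). The share of genes called was 47.7%. For Bhlhe40 it was -1.06 ± 0.28 in the lower-numbered libraries (adjusted p = 0.00174, where 56.2% of genes passed) and -0.33 ± 0.23 in the higher-numbered ones (adjusted p = 0.269, where 33.9% passed). The difference between these 2 values was not tested. Without the doubted pair the interaction was -0.78 ± 0.18 (adjusted p = 2e-04, where 53.3% passed). For Ciart it was -0.47 ± 0.24 in the lower-numbered and 0.09 ± 0.26 in the higher-numbered libraries (limma, adjusted p = 0.0893 and 0.799). In the lower-numbered ones without the doubted pair Ciart was at -0.68 ± 0.19 and passed (adjusted p = 0.00239, where 63.8% of genes did). Of the HIF targets 10 of 14 had a negative interaction that passed and 0 a positive one, with Bnip3 at -2.34.

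With Bmal1 intact, the difference between Apc-min and control organoids had opposite signs in the library sets, alike for both members. Over all libraries Bhlhe40 differed by -0.28 ± 0.16 (SE, limma, adjusted p = 0.103, unadjusted p = 0.087) and Ciart by -0.03 ± 0.14 (adjusted p = 0.852), Apc-min over control. With 81.6% of all genes called, 0 of 2 members is a low count. In the lower-numbered libraries Bhlhe40 was higher in Apc-min organoids by 0.49 ± 0.11 (adjusted p = 0.00121) and Ciart by 0.60 ± 0.08 (adjusted p = 2.58e-05), where 67.7% of genes passed. In the higher-numbered ones they were lower by -0.79 ± 0.16 (adjusted p = 0.00029) and -0.50 ± 0.18 (adjusted p = 0.0196), where 83.3% passed. The HIF targets split in the same way, with 11 higher and 3 lower of 14 in the lower-numbered and 0 higher and 10 lower in the higher-numbered libraries. Lower- and higher-numbered libraries of different genotypes are paired here by number alone. Bhlhe40 averaged 131 and 136.7 TPM in the lower- and higher-numbered control libraries, and 170.2 and 85.96 TPM in the Apc-min ones. Rescaling by the median of ratios shifts all genes by -0.15 in this comparison and gives -0.45 ± 0.16 for Bhlhe40, which then passed (adjusted p = 0.01, where 80.8% of genes did), and -0.18 for Ciart (adjusted p = 0.221).

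Without Bmal1, Apc mutation went with less Bhlhe40. Bmal1-null organoids held 129.5 TPM ± 23 and Apc-min Bmal1-null ones 71.2 TPM ± 31.9 (SD, n = 22 each), lower at 11 of 12 time points, with 28 h as the exception. That exception rests on the doubted library, at 184 TPM, against 34.2 TPM in the other Apc-min Bmal1-null library of 28 h. The log2 difference was -0.95 ± 0.13 (SE, limma, adjusted p = 3.51e-08), -0.75 ± 0.16 in the lower-numbered and -1.16 ± 0.19 in the higher-numbered libraries. Ciart differed by -0.21 ± 0.13 (adjusted p = 0.12), lower at 6 of 12 time points and higher at the other 6, which were 28 h and 38 to 46 h. At 28 h this too rests on the doubted library, with 16.3 TPM against 3.65 TPM in the other one. Without the doubted pair Ciart was at -0.28 ± 0.11 and passed (adjusted p = 0.0191, where 85.2% of genes did). With all libraries 84.5% of genes passed. Of the HIF targets 11 of 14 were lower and 0 higher, led by Ndrg1 (-4.50), and of 10 glucocorticoid genes 8 were lower and 1 higher. The 4 comparisons of levels share genotypes pairwise, so they are not independent of each other.

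**Figure D5:**
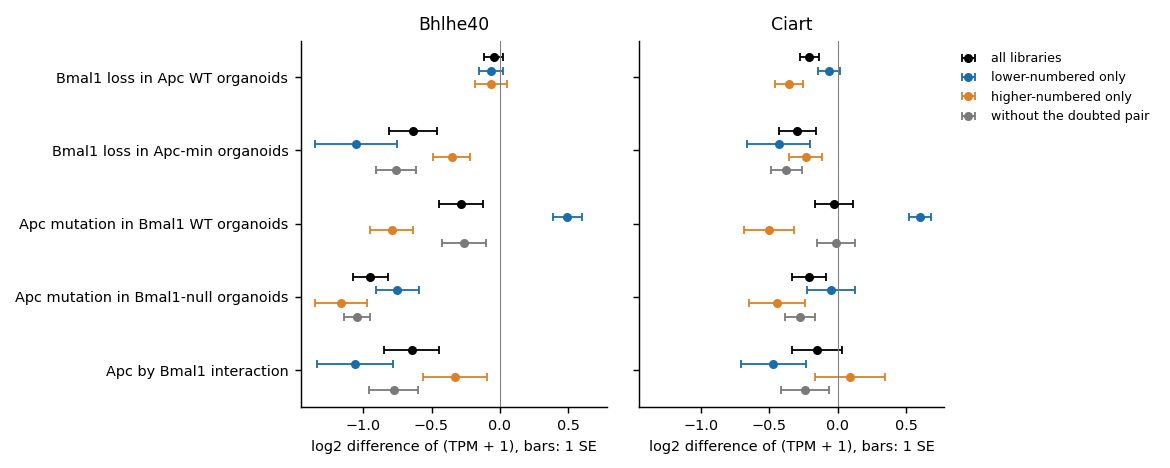
Log2 difference of (TPM + 1) of Bhlhe40 and Ciart with 1 SE in the 4 comparisons of mean level and their interaction, with all libraries, within each library set and, where they enter, without the doubted pair. For Apc mutation with Bmal1 intact the sets lie on both sides of 0, at 0.49 and -0.79 for Bhlhe40 and at 0.60 and -0.50 for Ciart.

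Fitted cosines of both members differed between Apc-min and control organoids, though with all libraries no rhythm of either member passed in these genotypes. The difference had an amplitude of 0.69 ± 0.20 for Bhlhe40 (log2, SE; limma, adjusted p = 0.0426) and 0.66 ± 0.16 for Ciart (adjusted p = 0.0221), where 12.3% of all genes passed. Both calls were lost within either library set alone, with median-of-ratios scaling (0.57, adjusted p = 0.114, and 0.55, adjusted p = 0.0582) and with a linear time term (0.24 for both, adjusted p = 0.989 and 0.966). Bhlhe40 also lost the call without any 1 of 21 of the 44 libraries and without the doubted pair (0.64 ± 0.20, adjusted p = 0.0797). Ciart kept it there (0.63 ± 0.16, adjusted p = 0.0395, where 5.96% of genes passed), and lost it without control 40 h replicate 2 (adjusted p = 0.0501). Between Apc-min Bmal1-null and Bmal1-null organoids the difference was 0.23 ± 0.17 for Bhlhe40 (adjusted p = 1) and 0.50 ± 0.16 for Ciart (adjusted p = 0.259), where 0.836% of genes passed, and Ciart passed at 0.63 ± 0.12 without the doubted pair (adjusted p = 0.00594, where 2.75% of genes passed). Between Apc-min Bmal1-null and Apc-min organoids it was 0.35 ± 0.24 and 0.23 ± 0.21 (adjusted p = 0.797 and 0.875, unadjusted p = 0.336 and 0.559), where 0% of genes passed in limma and 880 had an unadjusted p under 0.05.

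Bhlhe41 was at trace level everywhere and highest in Apc-min organoids. It ran from 0 to 0.17 TPM in control (median 0.02), from 0 to 0.19 in Bmal1-null (median 0.01), from 0.01 to 0.92 in Apc-min (median 0.145) and from 0.01 to 0.21 in Apc-min Bmal1-null organoids (median 0.03). The Apc-min values came mostly from the lower-numbered libraries, with 0.411 TPM ± 0.294 (SD, n = 10) against 0.0875 ± 0.0665 in the higher-numbered ones (SD, n = 12). The highest library, at 0.92 TPM, was lower-numbered at 44 h. It was left out of the main tests by the filter on low values, and no filter gave a log2 difference of (TPM + 1) of 0.22 ± 0.06 for Apc-min over control (SE, limma, adjusted p = 0.00262, where 52.9% of genes passed). It gave -0.19 ± 0.06 for Apc-min Bmal1-null over Apc-min (adjusted p = 0.0211, where 32% passed) and an interaction of -0.19 ± 0.07 (adjusted p = 0.0209, where 23.8% passed). With a pseudocount of 1 TPM these values understate the fold of a gene this low. No rhythm of Bhlhe41 passed (adjusted p = 0.431 to 0.987).

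Within a genotype, libraries with more Bhlhe40 held more Ciart. Over the 22 libraries Pearson's r of log2(TPM + 1) was 0.587 in control (Spearman's rho 0.589) and 0.593 in Bmal1-null organoids (rho 0.492), with permutation p = 0.00376 and 0.00373, two-sided, and 0.00715 for both after Benjamini-Hochberg adjustment over 12 relations. Without the 2 libraries farthest from the median of Bhlhe40, r was 0.546 and 0.451. In Apc-min Bmal1-null organoids r was 0.866 (rho 0.919, permutation p = 1e-05, the smallest possible, adjusted 6e-05), 0.9 without those 2 and 0.885 without the doubted library. Apc-min libraries fall into sets, so r is given within them, adjusted over 8 such relations. It was 0.944 in the 12 higher-numbered libraries (rho 0.972, permutation p = 1e-05, adjusted 8e-05; 0.929 without the 2). It was 0.92 in the 10 lower-numbered ones (rho 0.576, permutation p = 0.0229, adjusted 0.034), and there r fell to 0.0586 without the 2, so the relation rests on those libraries. Of these 2, 1 is the doubted library, with 49.1 TPM of Bhlhe40 and 5.74 TPM of Ciart. In the lower- and higher-numbered libraries r was 0.506 and 0.701 in control and 0.663 and 0.492 in Bmal1-null organoids. In Apc-min Bmal1-null organoids it was 0.817 and 0.885. The adjusted permutation p was 0.122 for the lower-numbered control and the higher-numbered Bmal1-null libraries, and 0.034 or less for the others. Those Bmal1-null libraries had a rho of 0.314, and r was 0.179 without the 2. Libraries of a genotype share time points, so the values are not independent of the time course.

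Bhlhe41 was correlated with the others at levels near 0, as a description. Its r with Bhlhe40 was 0.237 in control, 0.346 in Bmal1-null and 0.198 in Apc-min Bmal1-null organoids (rho 0.232, 0.423 and -0.0854; permutation p = 0.274, 0.114 and 0.36, adjusted 0.365, 0.171 and 0.392; without the 2 libraries farthest from the median 0.292, 0.284 and -0.267). With Ciart it was 0.576 in control (rho 0.573, permutation p = 0.00417, adjusted 0.00715), but 0.32 without the 2 libraries farthest from the median. It was 0.21 in Bmal1-null and 0.0618 in Apc-min Bmal1-null organoids (rho 0.261 and -0.103; permutation p = 0.344 and 0.789, adjusted 0.392 and 0.789; without the 2 libraries 0.132 and -0.311). Within the Apc-min sets, adjusted over 4 relations, its r with Bhlhe40 was 0.657 in the lower-numbered and 0.595 in the higher-numbered libraries (rho 0.782 and 0.632; permutation p = 0.0193 and 0.0418, adjusted 0.0443 and 0.0557; 0.721 and 0.376 without the 2). With Ciart it was 0.448 and 0.659 (rho 0.418 and 0.681; permutation p = 0.231 and 0.0222, adjusted 0.231 and 0.0443; 0.542 and 0.733 without the 2).

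By the likeness of their levels over the 22 control libraries, Bhlhe40 and Ciart had different neighbours among 9514 genes of 5 TPM or more. Closest to Bhlhe40 were Pfkp, a phosphofructokinase (r = 0.965), the lipoprotein receptor Vldlr (0.96), the cytochrome Cyp2s1 (0.955), the transcription factor Myrf (0.949) and the glycogen synthase Gys1 (0.946). These genes kept r from 0.883 to 0.962 with Bhlhe40 over the Bmal1-null libraries. Closest to Ciart were the carotenoid oxygenase Bco1 (0.798), the calpain Capn13 (0.793), the acyltransferase Soat2 (0.753), the lipoprotein receptor Scarb1 (0.746) and the protease Lonp1 (0.743). Over the Bmal1-null libraries their r with Ciart was from -0.0555 to 0.465. The values are a description over libraries that share time points, and the highest of many r run high.

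Each member overlaps a gene on the opposite strand, and whether the counting used strand is not given in the sources used here. Ciart lies wholly inside the antisense gene C920021L13Rik, which averaged 1.66 TPM in control, 1.71 in Bmal1-null, 1.52 in Apc-min organoids and 0.859 in those with both mutations. Bhlhe40 overlaps 0610040F04Rik over 306 bases, at 1.302, 1.306, 0.171 and 0.308 TPM in the same order. Gm43909, which overlaps Bhlhe41, was at 0 in at least 20 of 22 libraries of each genotype. These levels are small beside Bhlhe40 and are a larger share of the level of Ciart.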

How the data were processed

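TPM was deposited by the authors in 1 table per genotype; STAR 2.5, RSEM 1.3.0 and GRCm38 are named in the submitters' processing notes without roles. Quantile-normalized values, a score scaled within each genotype, were also deposited by the authors and served as an alternative. Read counts and percent values of mapping were deposited by the authors and are not normalized. The tables hold 88 of 96 libraries, since 8 were marked as not used.

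Tests used log2(TPM + 1) and genes averaging 1 TPM or more in a compared genotype. limma 3.58.1 in R 4.3.3, with a variance trend, tested a 24 h cosine and sine, differences between rhythms, mean level with time points as factor levels, and the interaction. A call is a Benjamini-Hochberg adjusted p under 0.05 over all genes. Differences are mutant over WT on the log2 scale, which understates the change of low genes. Correlations used 100000 permutations. The fits were tested on simulated data. TPM keeps no read depth per gene, so no counting interval is given.

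Members and lists were chosen with earlier results of these data known. Named genes are the members, and up to 6 clock, 4 HIF target and 4 glucocorticoid genes with the largest called values, the 5 genes of highest likeness and Arntl. The tested clock genes that did not pass for Bmal1 loss with Apc intact were named there after their values were seen. The time blocks, the comparison of library sets within a genotype, and Cdh5, Itgam and Sis were chosen after their values were seen. Library sets go by the library number in the titles, and the design was kept for all 4 genotypes. The values of 1 clock gene that the rule names are not reported here.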

Additional observations from a re-analysis of the deposited data

Results flagged for a closer look

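The effect of Bmal1 loss on Bhlhe40 differed between Apc backgrounds by the interaction test, with a log2 value of -0.65 ± 0.20 (SE, limma, adjusted p = 0.00632). For that test 47.7% of all genes passed. In the higher-numbered libraries it was -0.33 ± 0.23 and did not pass (adjusted p = 0.269, where 33.9% of genes did). With all libraries, neither Bhlhe40 nor Ciart had a rhythm that passed in Apc-min or control organoids. Their fitted cosines differed between these genotypes, with amplitudes of the difference of 0.69 and 0.66 (log2, limma, adjusted p = 0.0426 and 0.0221, where 12.3% of all genes passed). Both calls were lost within either library set, with median-of-ratios scaling (adjusted p = 0.114 and 0.0582) and with a linear time term (0.989 and 0.966), and that of Bhlhe40 in 21 of 44 fits that left out 1 library. Bhlhe41, tested with no filter on low values, had an interaction of -0.19 ± 0.07 at levels under 1 TPM (limma, adjusted p = 0.0209, where 23.8% of genes passed). No group of 4 to 10 libraries of 1 genotype and time exists, so single libraries within a group were not checked for standing apart.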

How the results depend on the processing

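Under other settings 124 counts of called members stayed within 1.5 times the reported count and 31 did not. Among values of single members 272 kept their side of the threshold, and 18 gained and 18 lost a call. Sign changes without a call count among the 272, such as the interaction of Ciart, 0.09 in the higher-numbered libraries against -0.15. Another 2 changed sign with a call. For Apc mutation with Bmal1 intact, the lower-numbered libraries gave 0.49 for Bhlhe40 and 0.60 for Ciart, against -0.28 and -0.03. Over single libraries the uncalled value of Ciart there ran from -0.08 to 0.06, above 0 without 5 of the 44 (limma, adjusted p = 0.606 to 0.996). The cause of these changes was not tested.

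Rhythm in Apc-min organoids went from 0 members called to 2 with the library set as a replicate block, with a gene-length slope and with all 4 genotypes in 1 fit, and ranged from 0 to 2 when 1 library was left out. Bhlhe40 gained its call without replicate 1 at 30 or 34 h or replicate 2 at 36 h, and Ciart without these or replicate 2 at 26, 38 or 42 h. Rhythm in Apc-min Bmal1-null organoids went from 1 to 0 with no filter, lower-numbered libraries only, a linear time term or time as a factor, to 2 without the doubted pair, and from 0 to 2 over single libraries. The rhythm difference for Apc mutation with Bmal1 intact went from 2 to 1 with no filter, without the doubted pair or with a length slope, and to 0 with median-of-ratios scaling, either library set alone, a linear term or time as a factor, with 0 to 2 over single libraries. With Bmal1 lost it went from 0 to 1 in the higher-numbered libraries and without the doubted pair, with 0 to 1 over single libraries. The share of all genes called moved too. For rhythm in Apc-min organoids it was 12% in the main fit and 33.1% with the block. In Apc-min Bmal1-null organoids it was 2.59%, and 11.9% without the doubted pair. For the rhythm differences it went without that pair from 12.3% to 5.96% with Bmal1 intact and from 0.836% to 2.75% with Bmal1 lost. Shares under the other settings are not given here, so the counts say nothing about the members alone.

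For mean level, Bmal1 loss in Apc-min organoids went from 1 member called to 2 with no filter, the replicate block, all 4 genotypes in 1 fit or without the doubted pair, with 1 to 2 over single libraries: Ciart gained its call without Apc-min replicate 1 at 26 or 28 h or replicate 2 at 28 or 36 h, or Apc-min Bmal1-null replicate 1 at 28 or 46 h. Apc mutation with Bmal1 intact went from 0 to 1 with no filter or median-of-ratios scaling and to 2 in either library set, with 0 to 1 over single libraries (Bhlhe40 without Apc-min 38 h replicate 1, adjusted p = 0.0403). With Bmal1 lost it went from 1 to 2 with that scaling, a length slope or without the doubted pair, with 1 to 2 over single libraries. The interaction went from 1 to 2 with no filter and to 0 in the higher-numbered libraries, and stayed at 1 over single libraries. The replicate block changed no other call of the members. Over all genes 60.3% passed in the main fit for Bmal1 loss in Apc-min organoids, 65.9% without the doubted pair and 32% with no filter. For Apc mutation 81.6% passed with Bmal1 intact (67.7% and 83.3% in the lower- and higher-numbered libraries) and 84.5% with Bmal1 lost. For the interaction 47.7% passed, and 33.9% in the higher-numbered libraries. Calls this common say nothing about the members alone.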
